A study of Mus musculus with 134 samples.

Results

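The length of the tagmentation reaction was compared between 30 and 5 min in bulk RNA libraries from the mouse embryonic stem cell line ES-E14TG2a (labelled E14, 129/Ola, labelled untreated, day1). The comparison used 8 of the 134 samples of the series, chosen by their labels: 4 libraries tagmented for 30 min and 4 for 5 min, with 2 libraries at 16 °C and 2 at 37 °C for each time. All 8 groups of the temperature and time series shared the cell line and the culture medium with serum and leukemia inhibitory factor. They also shared the methods of column extraction of total RNA, DNase I digestion and oligo dT reverse transcription. They were labelled as differing in the reaction with Tn5. The 8 libraries tagmented for 10 or 15 min at the same temperatures were used for the order in between. The series as a whole joins histone mark and RNA profiling in the same cells, and these libraries were made to choose the reaction conditions for the RNA arm. E14 is a single line, so no other genetic background was covered.

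Tn5 is a transposase that cuts DNA and joins the adapters it carries to the ends of the cut in the same step, which is called tagmentation. It also acts on the hybrid of an mRNA and its cDNA, which spares the synthesis of the other DNA strand. Only a piece of cDNA with an adapter at each end is amplified and sequenced, so each transcript is sampled through where and how often it is cut. The adapter oligos of the study are shown because they are what a cut leaves on every sequenced end. Capitals mark the mosaic end of 19 bases that Tn5 binds and that is shared by both adapters, and the last oligo is its complement.
Tn5ME-A: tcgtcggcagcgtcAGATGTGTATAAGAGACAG
Tn5ME-B: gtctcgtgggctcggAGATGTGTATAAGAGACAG
Tn5MErev: CTGTCTCTTATACACATCT

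Depth differed between the times in opposite directions at the 2 temperatures. The total count per library was 6767300 and 12470842 after 5 min and 2549407 and 2258725 after 30 min at 16 °C, against 1358419 and 1178008 after 5 min and 2490196 and 8097625 after 30 min at 37 °C. The 2 libraries of a condition correlated across genes with r = 0.977 to 0.992 on a log2 scale in 7 of the 8 conditions and with r = 0.938 for 5 min at 37 °C. No pair of replicates agreed within sampling noise. Defining markers of embryonic stem cells were read in all 8 libraries, with a mean of 242 CPM (counts per 1000000 after scaling) for Pou5f1, 375 for Nanog and 436 for Sox2. Gata6 of the primitive endoderm (1.46 CPM) and Col1a1 of fibroblasts (0.281 CPM) were near 0, and Sox7 and Dcn were at 0 counts in all 8. Other members of the same lists were higher, with Lama1 at 269 CPM, Lamb1 at 44.0, Col4a1 at 5.20 and Pdgfrb of the fibroblast list at 13.7. Of the 11 primitive endoderm markers 8 did not pass the filter on low counts. Their summed level ranged from 304.5 to 329.9 CPM after 5 min and from 299.3 to 368.0 CPM after 30 min, counting all 11. The summed level of the 10 fibroblast markers ranged from 16.3 to 25.8 CPM after 5 min and from 15.8 to 18.5 CPM after 30 min, and only 1 of the 10 passed the filter on low counts.

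The share of counts on Rn45s, the precursor of ribosomal RNA, was higher after 30 min at both temperatures. At 16 °C it was 11.8% and 13.0% after 5 min and 22.1% and 25.1% after 30 min, and at 37 °C it was 33.0% and 35.97% after 5 min and 37.6% and 40.7% after 30 min. At each temperature both 30 min libraries lay above both 5 min libraries. The 10 and 15 min libraries lay in between by their means, at 16.1% ± 1.05 and 17.3% ± 0.877 (SD, n = 2) at 16 °C and at 35.9% ± 2.48 and 38.0% ± 2.72 (SD, n = 2) at 37 °C. The mean difference between 30 and 5 min was 7.94 percentage points, with p = 0.0556 in an exact two-sided permutation test of times within temperature, which is the smallest p that 36 arrangements allow. The difference was 11.2 points at 16 °C and 4.66 points at 37 °C. Rn45s was left out of all values that follow.

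Fewer genes were detected after 30 min when all libraries were thinned to 754239 counts. At 16 °C 12863 and 12769 genes had at least 1 count after 5 min and 12638 and 12632 after 30 min, and at 37 °C the numbers were 12751 and 12767 against 12465 and 12548. Both 30 min libraries lay below both 5 min libraries at each temperature. The mean difference was -216.8 genes (exact two-sided permutation test, p = 0.0556, again the smallest p possible). Without thinning the difference followed depth, at -2248 genes at 16 °C and 1344 genes at 37 °C. The genes were already fewer at 10 min, with 12633 ± 67.9 at 16 °C and 12538 ± 101 at 37 °C (SD, n = 2).

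**Figure D1:**
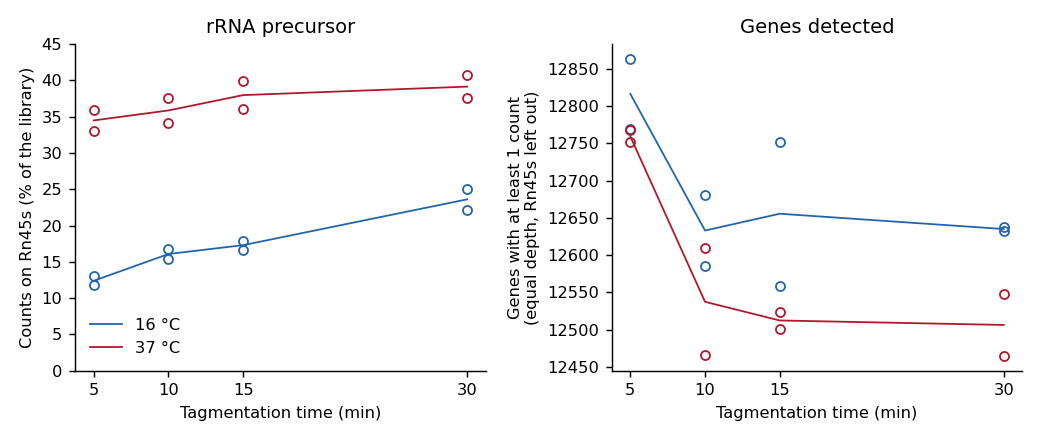
The left panel plots the percentage of counts on Rn45s and the right panel the number of genes with at least 1 count after thinning to 754239 counts, against tagmentation time in minutes. Circles are libraries and lines join the means of 2 libraries at 16 °C (blue) and 37 °C (red). The Rn45s share climbs from 12.4% to 23.6% at 16 °C and from 34.5% to 39.1% at 37 °C. The vertical axis of the right panel does not start at 0.

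With temperature as a block, 441 of 10269 genes tested differed between 30 and 5 min (edgeR quasi-likelihood test, Benjamini-Hochberg adjusted p below 0.05), which is 4.29% of them. Of these, 221 were higher (2.15%) and 220 lower (2.14%) after 30 min, and 44 changed by 2-fold or more. The higher genes had a median of 1525 bases of exon and 55.8% G+C and the lower genes 3198 bases and 44.6%, against 3100 bases and 50.6% over all genes tested. Of 79 ribosomal protein genes tested 21 were among the higher and 2 among the lower genes (29.1% called). Of 262 zinc finger genes named Zfp 15 were among the lower and 7 among the higher (8.4% called). At both temperatures 319 of the 441 genes had 30 min libraries entirely on one side of the 5 min libraries, in the same direction. They were called from these same libraries. Among all genes tested 1320 (12.9%) were apart at both temperatures in the same direction and 1033 in opposite directions. The count rested on single libraries. It was 34 and 31 without the first and the second 5 min library at 16 °C, 3 without either 30 min library at 16 °C, 1341 without the first 5 min library at 37 °C and 704 without the second 30 min library at 37 °C. It was 53 in libraries thinned to equal depth.

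Among genes that rose and whose groups did not overlap, the 12 with the largest change went from 1.74 on the log2 scale for Foxd1 to 0.99 for B4galnt4. Foxd3, a forkhead transcription factor of pluripotent cells and the neural crest, was read at 10.8 and 13.3 CPM after 5 min and 31.9 and 32.8 CPM after 30 min at 16 °C, and at 22.6 and 15.6 CPM against 35.8 and 23.1 CPM at 37 °C. Its log2 fold change was 1.12 ± 0.22 (SE, edgeR adjusted p = 0.0135). The rise was wide at 16 °C, and at 37 °C the closest 5 and 30 min libraries nearly touched.
Foxd1, a related forkhead factor, was lower in level, at 1.15 and 1.70 CPM against 7.60 and 8.34 CPM at 16 °C and at 6.46 and 6.48 CPM against 15.0 and 7.57 CPM at 37 °C. Romo1, a small protein of the inner mitochondrial membrane, was read at 10.5 and 10.4 CPM after 5 min and 23.3 and 29.8 CPM after 30 min at 16 °C, and at 18.3 and 23.3 CPM against 25.4 and 38.2 CPM at 37 °C. Its log2 fold change was 1.11 ± 0.20 (SE, edgeR adjusted p = 0.0111). B4galnt4, a glycosyltransferase of the Golgi, was read at 38.1 and 33.9 CPM against 80.1 and 73.9 CPM at 16 °C and at 34.4 and 35.0 CPM against 52.7 and 60.1 CPM at 37 °C. It had the smallest adjusted p among the 12 (log2 fold change 0.99 ± 0.13, SE, edgeR adjusted p = 0.00254). Sik2, a salt-inducible kinase, had log2 fold changes of 1.29 at 16 °C and 1.43 at 37 °C. The other rises in this group were C2cd4b, Tmem238, Carnmt1, the centriole gene Poc1a, the ribosomal stalk gene Rplp2, the Rbmx paralog Rbmxl2 and Mir6236.

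The 12 largest falls whose groups did not overlap ran from -1.66 on the log2 scale for Stk17b to -1.14 for Zfp97. Zinc finger genes were 4 of them, namely Zfp971, Zfp808, Zfp932 and Zfp97, which encode proteins with tandem C2H2 fingers. Zfp97 was read at 21.5 and 27.1 CPM after 5 min and 12.2 and 8.34 CPM after 30 min at 16 °C, and at 17.2 and 33.7 CPM against 15.6 and 10.7 CPM at 37 °C (log2 fold change -1.14 ± 0.23, SE, edgeR adjusted p = 0.0135). Zfp808 was read at 13.5 and 12.0 CPM against 4.56 and 7.74 CPM at 16 °C and at 10.8 and 23.3 CPM against 5.86 and 6.51 CPM at 37 °C. At each temperature both 5 min libraries lay above both 30 min libraries in both genes, and the pair at 37 °C was spread widely.
Rab8b, a small GTPase of membrane traffic, was read at 8.05 and 8.76 CPM after 5 min and 3.04 and 3.57 CPM after 30 min at 16 °C, and at 14.0 and 14.3 CPM against 6.51 and 6.93 CPM at 37 °C. Its replicates stood close together within each group (log2 fold change -1.19 ± 0.28, SE, edgeR adjusted p = 0.0233). Golph3l, a Golgi phosphoprotein, was read at 20.2 and 13.4 CPM against 7.10 and 4.77 CPM at 16 °C and at 17.2 and 16.9 CPM against 6.51 and 9.67 CPM at 37 °C. Stk17b, a kinase, and Tank, an adaptor of NF-κB signalling, had means of only 5.07 CPM each. The remaining falls were Gm10033, 1300002E11Rik and the gene copies Mfap1b and Morf4l1b. Since reads that match several places were not counted, genes with near-identical copies are uncertain, among them Mfap1b, Morf4l1b and ribosomal protein genes with processed pseudogenes.

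The base composition of these genes is visible in short coding stretches of 120 bases, taken from the middle of the longest coding exon in mm9 of the 2 rises richest and the 2 falls poorest in G+C. Capitals mark G and C. The stretch of C2cd4b, which encodes a C2 domain protein, is chr9:67607980-67608099 with 77.5% G+C, that of Rbmxl2 is chr7:114353541-114353660 with 81.7%, that of Zfp808 is chr13:62273483-62273602 with 38.3% and that of Zfp971 is chr2:177768055-177768174 with 40.8%. Each is printed on the strand of its gene.
C2cd4b: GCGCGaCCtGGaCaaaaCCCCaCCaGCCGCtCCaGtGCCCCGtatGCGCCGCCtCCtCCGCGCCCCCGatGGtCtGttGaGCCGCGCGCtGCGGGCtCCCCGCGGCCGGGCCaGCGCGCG
Rbmxl2: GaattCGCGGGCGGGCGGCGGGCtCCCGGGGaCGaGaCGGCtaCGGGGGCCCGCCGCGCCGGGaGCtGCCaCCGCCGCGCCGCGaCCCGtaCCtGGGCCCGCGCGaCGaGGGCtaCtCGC
Zfp808: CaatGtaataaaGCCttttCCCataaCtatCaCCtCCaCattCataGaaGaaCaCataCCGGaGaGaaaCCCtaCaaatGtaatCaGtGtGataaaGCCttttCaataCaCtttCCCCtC
Zfp971: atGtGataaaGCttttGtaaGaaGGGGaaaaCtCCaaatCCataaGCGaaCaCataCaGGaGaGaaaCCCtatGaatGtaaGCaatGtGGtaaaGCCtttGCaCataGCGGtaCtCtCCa

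The 4 called genes with the highest level per length were Mir6236, Rpl41, Rplp1 and Mir682. Rplp1, an acidic protein of the ribosomal stalk, was read at 1645 and 1624 CPM after 5 min and 2586 and 2596 CPM after 30 min at 16 °C, and at 2705 and 2594 CPM against 3032 and 3710 CPM at 37 °C. Its replicates at 16 °C were close and the groups were apart at both temperatures (log2 fold change 0.50 ± 0.11, SE, edgeR adjusted p = 0.0171). Rpl41, the shortest protein of the large subunit, was read at 1886 and 2066 CPM against 4356 and 4468 CPM at 16 °C, while at 37 °C 4201 and 3499 CPM overlapped with 3727 and 4283 CPM.
Mir6236 was spread more than any of these, with 204 and 948 CPM against 1753 and 2347 CPM at 16 °C and 1998 and 1994 CPM against 2031 and 10489 CPM at 37 °C. The second libraries of 10 and 15 min at 37 °C were as high (9768 and 9965 CPM), and these 3 libraries were also the deepest at that temperature, with 8097625 to 10031843 counts, whose part in the value was not tested. Mir682 was read at 185 and 176 CPM against 430 and 522 CPM at 16 °C, while at 37 °C 650 and 701 CPM overlapped with 846 and 682 CPM. The libraries hold fragmented long cDNA, and the annotation places a pseudogene, Gm4149, on the same strand at Mir682, so these counts do not measure a mature microRNA.

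The change with time was larger and more often called at 16 °C than at 37 °C. At 16 °C 2194 genes (21.4%) were called, 1096 higher (10.7%) and 1098 lower (10.7%) after 30 min, while at 37 °C 10 genes (0.0974%) were called and 795 had an unadjusted p below 0.05 in the same edgeR fit. The middle 90% of log2 fold changes lay between -0.76 and 0.65 at 16 °C and between -0.59 and 0.56 at 37 °C, where the median standard error was 0.24 against 0.18. The change differed between the temperatures in a test of the interaction for 500 genes (4.87%). Of these, 447 had the larger change at 16 °C, 394 had opposite signs at the 2 temperatures, 460 were called at 16 °C and 6 at 37 °C. In libraries thinned to equal depth 787 genes were called at 16 °C, 6 at 37 °C and 176 for the interaction, each fewer than at full depth. The order of the temperatures was kept, and the part of depth in it was not tested.
The counts at 16 °C were 1155, 1013, 1041 and 875 without the first and second 5 min and the first and second 30 min library of that temperature. Without the same libraries the interaction gave 241, 211, 257 and 203 genes, and it gave 777 without the second 5 min and 310 without the second 30 min library at 37 °C. The count at 37 °C was 25 and 23 without the first and the second 5 min library there, 69 and 1 without the first and the second 30 min library, and 5 without the first 30 min library at 16 °C.

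The 3 genes with the smallest interaction p were H2ac8, Rpl19 and Rpl36. H2ac8, a replication-dependent histone gene, was read at 61.4 and 61.9 CPM after 5 min and 251 and 287 CPM after 30 min at 16 °C, and at 326 and 290.4 CPM against 394 and 273 CPM at 37 °C. The 30 min level at 16 °C came up to that of the libraries at 37 °C, which overlapped with each other (difference of the log2 changes -2.11 ± 0.19, SE, edgeR adjusted p = 8.84e-09).
Rpl19, a protein of the large ribosomal subunit, was read at 65.4 and 83.98 CPM against 253 and 342 CPM at 16 °C and at 455 and 449.8 CPM against 495 and 445 CPM at 37 °C. Its log2 fold change was 2.01 at 16 °C and 0.01 at 37 °C. Rpl36, of the same subunit, was read at 176 and 162 CPM against 583 and 642 CPM at 16 °C and at 848 and 776 CPM against 966 and 658 CPM at 37 °C. In all 3 genes both 5 min libraries at 37 °C were above both 30 min libraries at 16 °C. A move of the 16 °C level towards that at 37 °C was not general. Across 10269 genes the change at 16 °C had Spearman's rho of 0.0489 with the change of 37 against 16 °C at 10 and 15 min.

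The 10 genes called at 37 °C were named after their values were seen. Rpl13, Rpl14, Rpl35 and Rpl37 of the large ribosomal subunit, Ndufa3 of respiratory complex I and the ribosome biogenesis gene Utp11 were higher after 30 min, and Erh, the splicing factor gene Snu13, Dynlt1b and Gm38396 were lower. Rpl35 was read at 268 and 312 CPM after 5 min and 483 and 713 CPM after 30 min at 37 °C, and at 118 and 86.1 CPM against 185 and 175 CPM at 16 °C. It rose by about as much at both temperatures (log2 fold changes 1.03 and 0.86, interaction edgeR adjusted p = 0.738).
Rpl37 was read at 184 and 198 CPM against 321 and 1118 CPM at 37 °C and Ndufa3 at 7.53 and 11.7 CPM against 21.5 and 62.6 CPM, so that the second 30 min library was far above the first in both. Rpl14, at 1086 and 1199 CPM against 1768 and 1764 CPM, had close replicates. Dynlt1b, a dynein light chain, was lower at 37 °C (log2 fold change -1.38) and higher at 16 °C (0.52), each with an edgeR adjusted p below 0.05, at 0.00656 and 0.0226. Of the 10, 5 were also called at 16 °C and 6 differed between the temperatures.

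**Figure D2:**
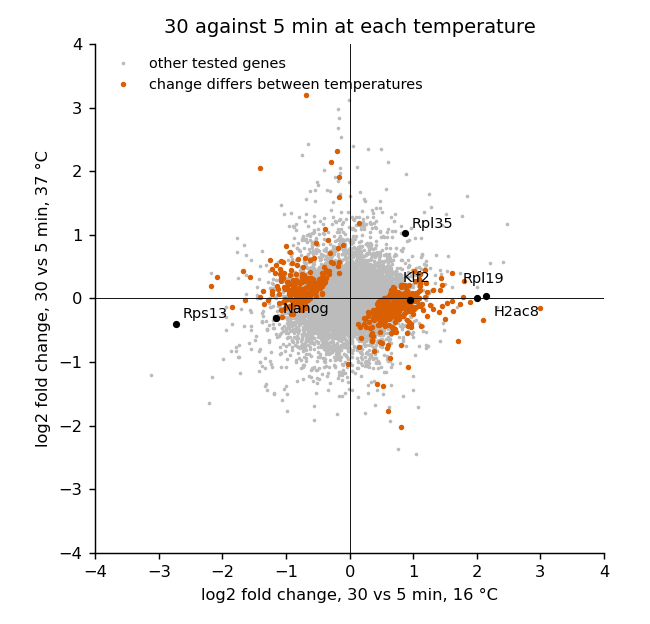
Each dot is 1 of 10269 genes, with the log2 fold change of 30 against 5 min at 16 °C on the horizontal axis and at 37 °C on the vertical axis. The 500 genes whose change differs between the temperatures (orange) lie mostly along the horizontal axis, with Rpl19 at 2.01 and 0.01, while Rpl35 at 0.86 and 1.03 lies near the diagonal. Black dots are the genes with a printed name.

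Genes of the cytoplasmic ribosome were called above the background of 4.29%. Of 85 ribosomal protein genes in the files 79 were tested, 21 rose and 2 fell (29.1% called), with a median log2 fold change of 0.24 against -0.02 over all genes tested. At 16 °C 39 rose and 9 fell (60.8% called against 21.4% of all genes, median 0.36), and at 37 °C 4 rose and none fell (median 0.09). Rplp2, the partner of Rplp1, was read at 229 and 268 CPM after 5 min and 785 and 920.3 CPM after 30 min at 16 °C, and at 830 and 836 CPM against 916 and 1138 CPM at 37 °C. Its level at 16 °C thus approached that at 37 °C, and the change differed between the temperatures (-1.53 ± 0.16, SE, edgeR adjusted p = 1.12e-07). Rps13, of the small subunit, went the other way, at 47.8 and 28.9 CPM against 4.56 and 6.55 CPM at 16 °C and at 6.46 and 3.89 CPM against 3.90 and 4.20 CPM at 37 °C, and the other fall was Rpl15.

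Respiratory chain genes, which encode the nuclear subunits of mitochondrial complexes I to V, gave 14 rises and 1 fall among 74 tested (20.3% called against 4.29%, median 0.14). Uqcrq of complex III was read at 205 and 195 CPM after 5 min and 310 and 342 CPM after 30 min at 16 °C, and at 289 and 305 CPM against 393 and 428 CPM at 37 °C. All of its 30 min libraries were above all of its 5 min libraries (log2 fold change 0.59 ± 0.10, SE, edgeR adjusted p = 0.00687). Atp5k of complex V had a log2 fold change of 0.70, Cox4i1 of complex IV had 0.38, and Atp5b, with little change, had 0.05. The fall was Atp5j, at -0.64.
Of 36 proteasome genes tested 1 rose, Psmc5 of the regulatory particle (0.41), and 1 fell, Psma3 of the core (-0.89), a share of 5.56%, near the 4.29% of all genes. At 16 °C 7 rose and 6 fell, or 36.1% against 21.4% of all genes. Psmb3 and Psmb6, the members with the highest level per length, had log2 fold changes of 0.25 and 0.24 that did not pass the test over both temperatures.

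Replication-dependent histone mRNAs end in a stem-loop and mostly lack the poly(A) tail that oligo dT primes on. Of 64 such genes 8 passed the filter, 3 rose (H2ac8, H2ac15 and H1f5) and none fell, with a median of 0.79. The share called was 37.5% against 4.29% of all genes. At 16 °C 5 rose with a median of 1.23 (62.5% called against 21.4%), and at 37 °C none was called, with a median of 0.12. The filter can pass a gene on the libraries of a single group, so members may have entered through groups where they were high. H2ac15 had a mean of only 4.64 CPM. H1f5, a linker histone, was read at 14.0 and 15.2 CPM against 29.4 and 40.5 CPM at 16 °C and at 40.9 and 37.6 CPM against 47.5 and 61.6 CPM at 37 °C. Among other transcripts without a regular poly(A) tail, Rmrp, the RNA of RNase MRP, was read at 15.9 and 18.0 CPM against 30.4 and 39.9 CPM at 16 °C. At 37 °C it was read at 37.7 and 33.7 CPM against 39.0 and 57.8 CPM, where the closest libraries nearly touched. Rmrp rose over both temperatures (0.81 ± 0.18, SE, edgeR adjusted p = 0.0197), and Rpph1, the RNA of RNase P, had 0.61 (edgeR adjusted p = 0.267). Of 116 small nucleolar and Cajal body RNA genes 4 passed the filter and none was called in edgeR, with log2 fold changes from -0.76 for Snord96a to 0.61 for Snord52. Of 1179 genes named as microRNA loci, among them long host transcripts such as Mir17hg, 4 passed the filter and 2 were called, Mir6236 and Mir682. That is 50.0% against 4.29% of all genes, from only 4 genes.

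Zinc finger genes named Zfp gave 15 falls and 7 rises among 262 tested (8.4% called against 4.29%), with a median of -0.19 against -0.02 over all genes. At 16 °C 14 rose and 39 fell, and their share of 20.2% was near the 21.4% of all genes. Zfp322a was read at 35.6 and 37.1 CPM after 5 min and 14.7 and 15.5 CPM after 30 min at 16 °C, and at 37.7 and 31.1 CPM against 16.3 and 21.4 CPM at 37 °C. It had the smallest p of the list (log2 fold change -1.06 ± 0.17, SE, edgeR adjusted p = 0.00653). Its groups were far apart at both temperatures. Zfp42, a pluripotency marker also called Rex1, and Zfp296, the 2 members with the highest level per length, had 0.12 and -0.27 and did not pass the test.

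Among 23 embryonic stem cell markers, all tested, 2 fell and none rose over both temperatures (8.7% called against 4.29% of all genes), with a median of -0.03. The libraries were labelled as differing in the Tn5 reaction on extracted RNA, so these values describe counts per library and do not measure a change in the cells. The labels do not say whether the libraries shared 1 RNA preparation. Nanog, a homeodomain factor that holds cells in the naive state, was read at 661 and 658 CPM after 5 min and 302 and 275 CPM after 30 min at 16 °C, and at 295 and 307 CPM against 259.6 and 241 CPM at 37 °C. The 5 min libraries at 16 °C stood apart from the other 6 (log2 fold change -1.16 at 16 °C and -0.31 at 37 °C, interaction edgeR adjusted p = 5.82e-04). Tdgf1, the Nodal co-receptor Cripto, was read at 862 and 822 CPM against 525 and 505 CPM at 16 °C and at 520 and 480 CPM against 437 and 484 CPM at 37 °C, where the groups overlapped.
At 16 °C alone 7 markers rose and 3 fell (43.5% called against 21.4% of all genes), the rises including Klf2, Sox2 and Utf1. Klf2, a Krüppel-like factor, was read at 464 and 420.1 CPM against 804 and 874 CPM at 16 °C and at 853 and 726 CPM against 847 and 758 CPM at 37 °C. Dppa5a, the marker with the highest level per length, was read at 1733 and 1539 CPM against 1473 and 1611 CPM at 16 °C and at 1724 and 2043 CPM against 2066 and 1801 CPM at 37 °C (log2 fold change -0.03 ± 0.10, SE). Pou5f1, the Oct4 gene, had a log2 fold change of 0.05, so markers of the same cells moved up, down or stayed within error.

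Smaller lists of signalling and metabolic genes held 1 to 3 calls each over both temperatures. The shares called were 18.2% of PRC2, 17.6% of cholesterol synthesis, 14.3% of immediate early, 8.33% of Wnt target and 5.26% of glycolysis genes, against 4.29% of all genes. Sp5, a Wnt target, was read at 81.8 and 82.1 CPM after 5 min and 170.3 and 176 CPM after 30 min at 16 °C, and at 166 and 169.8 CPM against 253 and 203 CPM at 37 °C, and was the only 1 of 12 Wnt target genes called (log2 fold change 0.78 ± 0.13, SE, edgeR adjusted p = 0.00687). Of 7 immediate early genes Jund rose (0.57), and at 16 °C Ier2 did so too (0.74). Of 11 PRC2 genes Epop, an accessory subunit, rose (0.45) and Rbbp4, a histone-binding subunit, fell (-0.65), while Suz12 of the core had 0.04. Of 17 cholesterol synthesis genes Lss (-0.47) and Idi1 (-1.10) fell and Mvk (0.51) rose. Of 19 glycolysis genes Pgam1 fell (-0.54), and Pkm, the pyruvate kinase gene and the one with the highest level per length, had -0.06.
None of 9 heat shock genes was called over both temperatures. Hspd1 and Hspb1, both chaperones, had -0.72 and 0.66 at 16 °C and passed the test there, and both differed between the temperatures. None of 14 small nucleolar RNA host genes was called over both temperatures, but Snhg1, Snhg4 and Snhg5 fell at 16 °C (-0.75, -0.79 and -0.65), a share of 21.4% that equals the 21.4% of all genes called there. Of 6 nuclear long noncoding RNA genes, Malat1 was read at 199 and 203 CPM against 130.3 and 135 CPM at 16 °C and at 252 and 410 CPM against 269 and 297 CPM at 37 °C, where the groups overlapped. None of 6 trophoblast, 3 primitive endoderm, 4 mesoderm and neural or 1 fibroblast marker genes tested was called over both temperatures, and Krt8 of the trophoblast list rose at 16 °C (0.61).

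**Figure D3:**
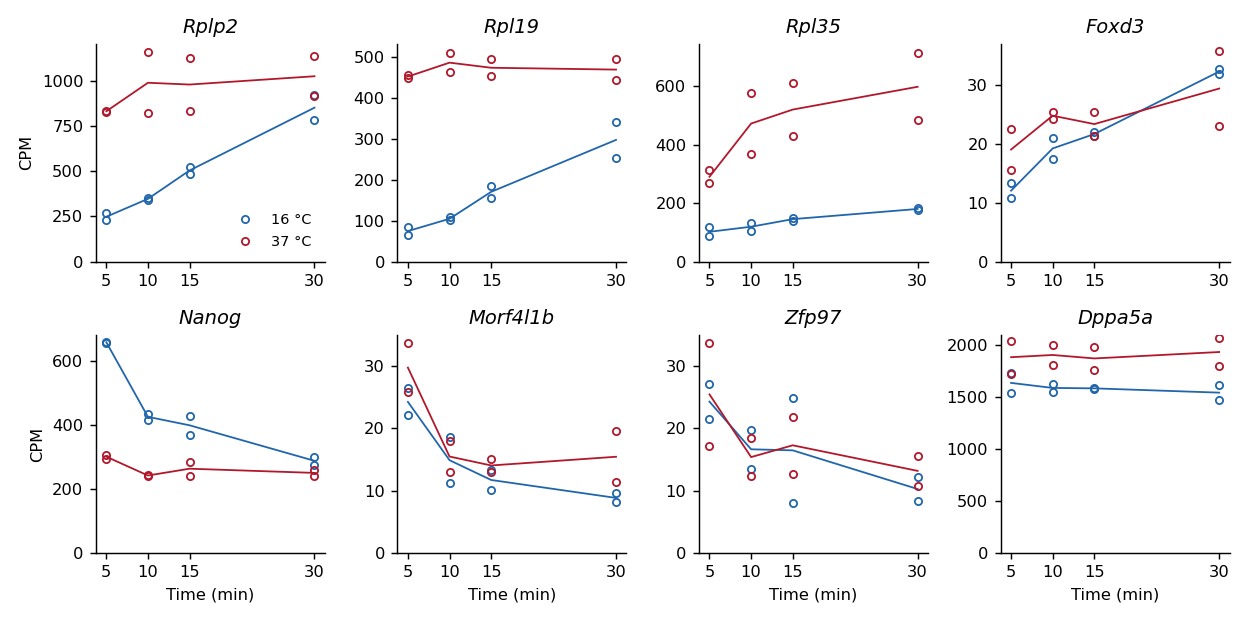
The 8 panels plot the CPM of Rplp2, Rpl19, Rpl35, Foxd3, Nanog, Morf4l1b, Zfp97 and Dppa5a against tagmentation time in minutes. Circles are libraries and lines join the means of 2 at 16 °C (blue) and 37 °C (red), and each vertical axis starts at 0. Nanog falls from 661 and 658 to 302 and 275 CPM at 16 °C, to about the level at 37 °C, and Rplp2 rises towards it.

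The change at 16 °C varied with the base composition of the transcript. Genes with exons under 40% G+C had a median log2 fold change of -0.47 at 16 °C, and the medians were -0.27, -0.12, 0.02 and 0.20 from 40 to 45%, 45 to 50%, 50 to 55% and above 55%. Of the genes called at 16 °C the 1096 rises had a median of 55.5% G+C and the 1098 falls 45.7%, against 50.6% over all genes tested. At 37 °C the medians over the same 5 classes were -0.15, -0.04, 0.01, 0.00 and -0.01. Across the 10269 genes, which share libraries and are not independent, Spearman's rho with G+C was 0.453 at 16 °C and 0.0523 at 37 °C.
The relation at 37 °C depended on a single library, at 0.274 without the first and -0.17 without the second 5 min library. The counts of those 2 libraries fell on genes with a mean of 50.8% and 50.1% G+C, a wider gap than between the 30 min libraries (50.5% and 50.7%). At 16 °C the means were 51.5% and 51.3% after 5 min and 52.0% and 52.0% after 30 min, and rho stayed between 0.377 and 0.481 with any 1 of the 8 libraries left out. In libraries thinned to equal depth rho was 0.389 at 16 °C. For the middle times, which use other libraries, rho of 15 against 10 min with G+C was -0.303.

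Genes of short transcripts had the highest fold changes at both temperatures. Genes with under 500 bases of exon had a median log2 fold change of 0.40 at 16 °C and 0.25 at 37 °C (68 genes), and those of 500 to 1000 bases had 0.21 and 0.10 (553 genes). From 2000 bases on, all medians lay between -0.08 and -0.02. Of the 68 shortest genes 19 rose and none fell over both temperatures, which is 27.9% called against 4.29%. Within genes under 1000 bases, those with 50% G+C or more had a median of 0.32 at 16 °C and those under 45% had -0.30, and at 37 °C the medians were 0.11 and 0.14. Of 202 genes with a single exon 26 rose and 4 fell, a share of 14.9%. Fragment length was not measured in these counts.

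**Figure D4:**
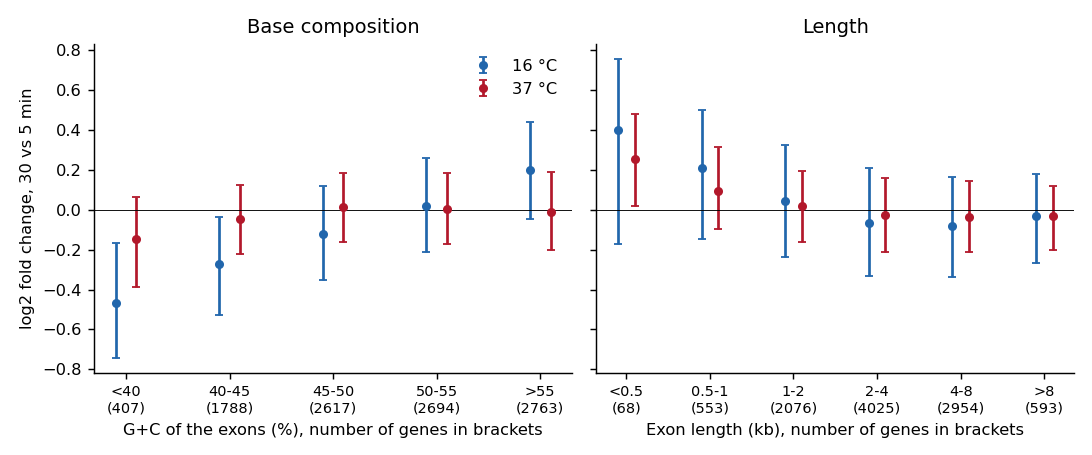
Points are medians and bars the range from the 25th to the 75th percentile of the log2 fold change of 30 against 5 min over genes, by G+C of the exons in percent (left) and by exon length in kilobases (right), at 16 °C (blue) and 37 °C (red). At 16 °C the medians climb with G+C from -0.47 to 0.20, and at 37 °C they stay between -0.15 and 0.01, while the shortest genes lie highest at both temperatures.

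At 16 °C the 10 and 15 min libraries lay between the ends. For the 221 genes higher after 30 min, the median log2 level relative to 5 min was 0.32 at 10 min, 0.42 at 15 min and 0.73 at 30 min at 16 °C, and for the 220 lower genes it was -0.35, -0.40 and -0.78. At 37 °C the values at 10 min were closer to those at 30 min, with 0.24, 0.28 and 0.33 for the higher and -0.28, -0.31 and -0.36 for the lower genes. Means at both middle times lay between the ends for 93.7% of the higher and 96.8% of the lower genes at 16 °C and for 54.8% and 48.2% at 37 °C, against 42.7% and 48.3% and then 27.3% and 23.7% of all genes tested with the same sign. These genes were chosen for a gap between the 5 and 30 min libraries, which by itself favours middle times that lie between the ends. All genes tested were not chosen that way, so their shares are not a matched background. No order of the times is concluded from these values. At 37 °C they are also relative to the 5 min pair that agreed least (r = 0.938). Nanog was read at 417 and 435 CPM after 10 min and 369.9 and 429 CPM after 15 min at 16 °C, between its ends.

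No gene differed between 15 and 10 min in the 8 middle libraries (0.0% of 12056 tested, 340 with an unadjusted p below 0.05 in edgeR, and 0 with DESeq2, 139 unadjusted). Of the 221 genes higher after 30 min 185 were also higher after 15 than after 10 min, or 83.7% against 51.2% of all genes, with a median log2 fold change of 0.07. Of the 220 lower genes 136 were lower after 15 min, or 61.8% against 48.8%, with a median of -0.04. These 2 comparisons share no library. A trend over the 4 times in all 16 libraries called 826 genes (6.72%), 527 rising and 299 falling with time, and included 392 of the 441 genes. The trend count was 327 and 334 without the first and the second 5 min library at 16 °C and 373 and 297 without the 30 min libraries there.

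**Figure D5:**
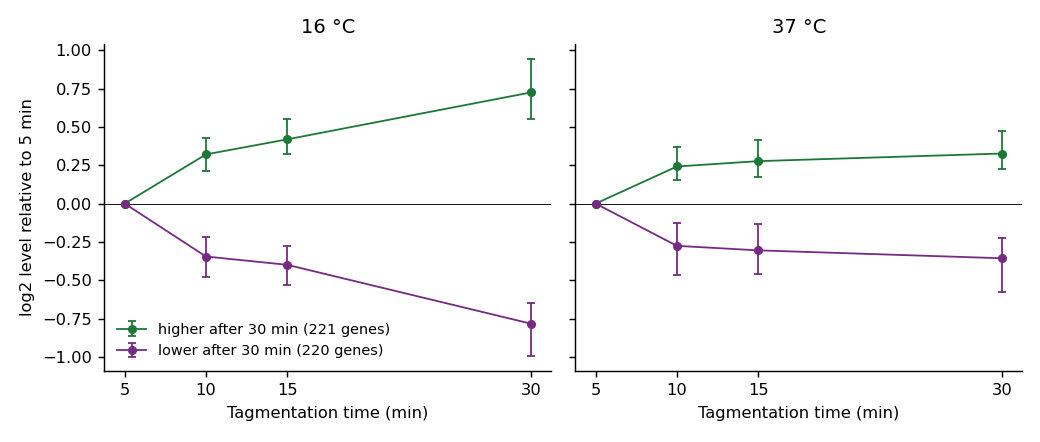
Points are medians and bars the range from the 25th to the 75th percentile of the log2 level relative to 5 min, over the 221 genes higher (green) and the 220 genes lower (purple) after 30 min, against tagmentation time in minutes at 16 °C (left) and 37 °C (right). At 16 °C the medians reach 0.32 at 10 min and 0.73 at 30 min, and at 37 °C they reach 0.24 and 0.33.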

How the data were processed

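The counts of 16 in vitro libraries were read from the deposited tables, 1 per library. Per the labels and methods, the authors trimmed paired reads with Trim Galore (0.6.4), aligned them to mm9 with STAR (2.5.4b) and counted read pairs over exons per gene with featureCounts (2.0.0), without strand and without reads that match several places or several genes. The deposited values are whole-number counts, not normalized, and the authors' tables give no fragment lengths. A shorter fragment can change which reads match 1 place, so genes with near-identical copies are uncertain.

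Groups came from the sample labels. Rn45s was removed, and edgeR (4.0.16, TMM scaling, filterByExpr, glmQLFTest, Benjamini-Hochberg over all genes tested) compared 30 with 5 min with temperature as a block, and each temperature and the interaction in a fit of 4 groups. 15 was compared with 10 min in the same way, and a trend over the 4 times was fitted in all 16 libraries. The trend used the log2 of the minutes as a number, with temperature as a block. Fold changes are log2 with standard error, and CPM are TMM-scaled. Level per length is CPM per kilobase of exon. The Rn45s share and the genes detected after thinning to 754239 counts were tested by exact permutation of times within temperature. Exon G+C came from NCBIM37 (mm9) for 25108 of 25209 genes. Sequences came from the study's oligo list and from NCBIM37 with the GENCODE vM1 annotation.

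The named genes were the 12 largest rises and 12 largest falls among called genes with a mean of at least 5 CPM and groups apart at each temperature, the 4 called genes with the highest level per length, the 2 members of each of 24 gene lists with the highest level per length and the 2 with the smallest p, and the 3 with the smallest interaction p. One item under this rule is not reported here. Genes named beside a small count outside this rule were chosen after their values were seen. The comparison and the lists were chosen with earlier results of these data known. Per the methods both libraries of a condition were independent. The labels do not say which cultures they came from, so p-values measure the spread between libraries, which may be technical. Replicate numbers were shared by the labels. Deviations of 5 and 30 min libraries with the same number correlated by only -0.0486 to 0.0485, so the numbers were not used to pair them. At 37 °C, however, the second libraries of 10, 15 and 30 min were all deeper than the first. Rpl35 was read there at 578, 611 and 713 CPM in the second and 366, 428 and 483 CPM in the first libraries. Both 5 min libraries at 37 °C were shallow, with Rpl35 at 268 and 312 CPM. Whether the second libraries formed a set of their own was not tested.

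DESeq2 (1.42.0) and edgeR with DESeq2's scaling were tried as alternatives, as were all genes without the filter, Rn45s kept, a replicate block, G+C and length offsets, each library left out, all 16 libraries, each temperature alone and thinning to equal depth, thinning having been chosen after seeing the data for the separate temperatures and the interaction. The edgeR scripts were tested on simulated data: with 100 genes changed 2-fold, 73% were recovered at 16 °C and 59% at 37 °C, and with 4-fold changes 96% and 90%. For the interaction 40% were recovered at 2-fold and 84% at 4-fold. The simulated spread was the same for all libraries at a given level. The 5 min pair at 37 °C agreed less than the other pairs (r = 0.938), so recovery at 37 °C may be lower than given. Intervals between replicates cover 2 libraries per condition.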

Additional observations from a re-analysis of the deposited data

Results flagged for a closer look

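The change from 5 to 30 min differed between 37 and 16 °C for 500 genes in the interaction test (edgeR, adjusted p below 0.05). Among the named genes it differed for 22, given here as the log2 change at 37 °C minus that at 16 °C. A value below 0 goes with a larger rise, or a smaller fall, at 16 °C. The ribosomal protein genes gave -1.996 for Rpl19, -1.94 for Rpl36, -1.53 for Rplp2 and -1.17 for Rpl41. H2ac8 gave -2.11, Mir682 -1.29 and Rbmxl2 -1.21. Genes of other kinds gave -1.09 for Jund, -1.04 for Ier2, -0.97 for Klf2, -0.97 for Ccnd1, -0.73 for Sp5 and -0.50 for Epop. Eno1 of glycolysis gave -0.83, the chaperone gene Hspb1 -0.75 and the proteasome gene Psmb6 -0.51. Values above 0 were found for Psma3 (1.26), Snhg1 (1.02), Snhg5 (0.90), Nanog (0.85), the chaperone gene Hspd1 (0.69) and Tdgf1 (0.53). Depth also differed between the times in opposite directions at the 2 temperatures, and 176 genes were called for the interaction in libraries thinned to equal depth.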

How the results depend on the processing

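The count of 441 genes for 30 against 5 min was 735 without the filter on low counts, 276 with G+C and length offsets, 886 in all 16 libraries, 3013 at 16 °C alone, 0 at 37 °C alone (432 with an unadjusted p below 0.05 in edgeR) and 53 after thinning to equal depth, and it ranged from 3 to 1341 with 1 library left out. With the replicate block it was 194, with the block and the offsets 77, and at 37 °C the block with offsets gave 17, while the replicate block alone gave 2003 genes at 16 °C, 7 at 37 °C, 413 for the interaction, 0 for 15 against 10 min and 999 for the trend. The cause of the lower counts was not tested, but the labels share only numbers here. The 2194 genes at 16 °C were 1159 with DESeq2 (719 higher and 440 lower), 787 after thinning and 875 to 2596 with 1 library left out. The 10 genes at 37 °C were 6 with DESeq2, 52 without the filter, 21 with offsets, 6 after thinning and 1 to 69 with 1 library left out. The 500 interaction genes were 176 after thinning, 350 with DESeq2 (100 with a higher and 250 with a lower change at 37 °C) and 203 to 777 with 1 library left out. No gene differed between 15 and 10 min with any library left out (0 to 0), and 6 did without the filter (579 unadjusted). The trend gave 297 to 1105 genes with 1 library left out. The difference in Rn45s share of 7.94 percentage points was 11.2 at 16 °C and 4.66 at 37 °C alone and 7.17 to 8.71 with 1 library left out. The difference in genes detected was -452 without thinning, -351 with Rn45s kept before thinning and -240.2 to -193.2 with 1 library left out. All 49 named genes called over both temperatures kept their direction with any 1 library left out. Of these, 47 lost the call without at least 1 library. The kept direction is not an independent check, because the genes were called from these same libraries. The largest rises and falls were also named only with groups apart at each temperature, so leaving out 1 library could hardly reverse them. Among the named genes called, Rpl36 was the single one to change sign under any alternative run, to -0.0421 at 37 °C alone. The 5 min libraries at 37 °C were the shallowest. At equal depth 787 genes were called at 16 °C and 6 at 37 °C, against 2194 and 10 at full depth. The part of depth in the difference between the temperatures was not tested. Having 2 libraries per condition limits the precision of each spread.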

Other observations

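The fold changes with temperature and those of 30 against 5 min at 16 °C were related to G+C with opposite signs and were almost unrelated to each other in rank. In the 10 and 15 min libraries, the log2 fold change of 37 against 16 °C had Spearman's rho of -0.541 with G+C across 12056 genes, while that of 30 against 5 min at 16 °C had 0.453 across 10269 genes. The 2 sets of fold changes share no library and had rho of 0.0489 with each other across 10269 genes, which are not independent replicates. Opposite signs did not hold for time in general. The change of 30 against 5 min at 37 °C had rho of 0.0523 with G+C. That of 15 against 10 min had -0.303, the same sign as temperature and from the same libraries.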
